A study of Mus musculus with 18 samples.

Results

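Chemokines are small secreted proteins that steer leukocytes through tissue, and their receptors sit on the leukocytes that respond. The chemokine genes described here are all genes of the deposited colon expression table whose mouse symbol, by NCBI gene identifier, is Ccl, Cxcl, Ccr or Cxcr followed by a number, plus Cx3cl1, Xcl1 and Xcr1. Pseudogenes and Cx3cr1 were left out. This gave 54 genes of 18349, with 37 ligands and 17 receptors. The rule uses symbols and no measured value, but it was set with earlier results of these data known.

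The 18 libraries, of 5 groups, are bulk RNA sequencing of the whole colon of male C57BL/6 mice. Control mice (n = 3) were fed normally, and the protocol mentions no gavage for them. All other mice drank 2.5% DSS (dextran sulfate sodium, which damages the colon lining and causes colitis) for 7 days, and were then gavaged for 5 weeks. The DSS group (n = 3) received no bacteria and, by the protocol, PBS. The WT group (n = 4) received Lactobacillus plantarum ZJ316, a lactic acid bacterium, the KO group (n = 4) ZJ316-KO and the COM group (n = 4) ZJ316-COM. The letters KO and COM are not explained in the labels, and they describe the bacterium, since the mice of every group have the genotype WT. Libraries are numbered within a group and not tied to animals, so the p-values take in no more than the spread among these libraries.

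Ligands of the CXC family that carry a Glu-Leu-Arg motif (ELR) bind CXCR2 and draw neutrophils, while CXCL9 and CXCL10 are induced by interferon and bind CXCR3 on T cells. CC ligands such as CCL2, CCL7 and CCL12 draw monocytes through CCR2, and CCL3 and CCL5 act on CCR1 among other receptors. CCL8 is grouped here with the monocyte-attracting ligands, without a claim that it acts through CCR2. In resting gut, CCL19, CCL21, CXCL12 and CXCL13 organise lymphoid tissue, CCL20, CCL25 and CCL28 guide lymphocytes to the mucosa, and CX3CL1 is held on the epithelium and vessels. Receptors signal through inhibitory G proteins to the cytoskeleton. Because the tissue was sequenced in bulk, fewer cells of a type and less RNA per cell cannot be told apart.

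Inducible chemokine genes often carry binding motifs for NF-kB or for interferon-regulated factors just before the start of transcription. RefSeq promoters (build GRCm38.p6, 250 bases upstream of the start) were matched for 40 of the 54 genes. The windows of the neutrophil-attracting genes Cxcl1, Cxcl2 and Cxcl3, which lie in 1 cluster on chromosome 5 between 90759298 and 90905938, are shown for their last 120 bases because they share a motif and their RNA is described below. Capitals mark matches to the NF-kB consensus, which in these windows overlap on the plus and minus strands, and in Cxcl3 also TATAAA. The windows are chr5:90891125-90891244, chr5:90903779-90903898 and chr5:90785981-90786100, all on the plus strand.
Cxcl1: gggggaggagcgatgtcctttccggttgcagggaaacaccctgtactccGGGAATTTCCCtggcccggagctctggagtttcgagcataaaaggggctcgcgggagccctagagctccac
Cxcl2: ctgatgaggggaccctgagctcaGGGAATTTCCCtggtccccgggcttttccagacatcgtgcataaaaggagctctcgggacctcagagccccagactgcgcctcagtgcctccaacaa
Cxcl3: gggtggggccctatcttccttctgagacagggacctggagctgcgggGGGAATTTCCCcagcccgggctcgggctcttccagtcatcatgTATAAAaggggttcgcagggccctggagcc
All 3 hold the same 11 letters, which begin 71 bases before the start in Cxcl1, 97 in Cxcl2 and 73 in Cxcl3. Over the whole windows 146 of 201 aligned bases were identical between Cxcl1 and Cxcl3 and 161 of 203 between Cxcl2 and Cxcl3. An NF-kB match stood in any window of 8 of the 40 chemokine genes (20%: Ccl9, Ccl20, Cxcl1, Cxcl2, Cxcl3, Cxcl10, Ccr3 and Ccr6). It stood in 3.9% of all 32851 RefSeq windows of that length, a share counted by window and not by gene.

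Cxcl10, whose level in 1 COM library stood far above all others, is shown over its full 250 bases (chr5:92348890-92349139, minus strand). Its capitals mark GAAANNGAAA, a core of the interferon-stimulated response element, and 2 matches to the NF-kB consensus.
Cxcl10: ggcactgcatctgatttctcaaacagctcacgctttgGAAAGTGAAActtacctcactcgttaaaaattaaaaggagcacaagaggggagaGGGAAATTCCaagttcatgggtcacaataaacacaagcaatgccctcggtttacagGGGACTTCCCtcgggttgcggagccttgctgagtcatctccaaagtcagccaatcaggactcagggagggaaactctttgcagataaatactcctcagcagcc
GAAANNGAAA, searched on both strands, stood in Ccl19, Cxcl10 and Cxcl14 among the 40 genes (7.5%) and in 2.98% of all windows. TATAAA stood in 11 of the 40 genes (27.5%) and in 12.4% of all windows. Shares by gene and by window are unlike measures. A match is a string of letters, not a site shown to be bound.

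The Ccl21 genes are near-identical copies, which bears on how their reads can be counted. The last 120 bases before the start of Ccl21a (chr4:42773992-42774111, minus strand) and Ccl21d (chr4:41903493-41903612, plus strand) share the 108 bases in capitals.
Ccl21a: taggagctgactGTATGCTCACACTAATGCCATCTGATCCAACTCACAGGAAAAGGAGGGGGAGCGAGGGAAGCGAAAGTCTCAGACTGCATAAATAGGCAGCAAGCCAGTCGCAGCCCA
Ccl21d: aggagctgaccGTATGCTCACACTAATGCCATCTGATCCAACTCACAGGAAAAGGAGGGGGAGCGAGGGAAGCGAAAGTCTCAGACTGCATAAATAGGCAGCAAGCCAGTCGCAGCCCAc
Over the whole windows 248 of 249 aligned bases were identical. Ccl21c and Ccl21d had the same FPKM in all 18 libraries, so their values are 1 measurement, and those of Ccl21a and Ccl21b are uncertain in how reads were split.

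Several libraries stood apart before any comparison. Mean log2(FPKM + 1) of 10 colonic epithelium markers was 8.60 to 9.48 in all 18, as labelled. Pancreatic acinar genes were high in DSS 1, DSS 3 and KO 3 (8.59 to 11.1, against at most 1.22 elsewhere), and genes of squamous epithelium in DSS 2, COM 3, WT 2, WT 4 and KO 3 (2.30 to 3.95, at most 1.06 elsewhere). The distal gut Hox genes were low in Control 3 (1.35), KO 2 (2.32) and DSS 3 (2.70), and B cell markers were nearly absent from Control 3 (0.42, against 1.90 to 3.63). Because Control has 3 libraries, Control 3 enters every comparison with it.

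Levels are in FPKM, fragments scaled to transcript length and to library size, and depth in reads is unknown. No chemokine gene was at 0 in every library. By mean over the libraries Ccl6, a myeloid and epithelial CC ligand, was highest at 209 FPKM, followed by Ccl21a at 138 and the mucosal ligand Ccl28 at 66.9. Cxcl12, Ccl5, Cxcl13 and Ccl8 came next at 28.3, 25.8, 23.5 and 17.4. Of the 54 genes, 43 reached 1 FPKM in at least 3 libraries and were tested (33 ligands and 10 receptors). The 11 others, all low in every group, are described after the receptors.

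Chemokine genes differed from Control in each group of DSS-treated mice, nearly always upward. Calls are limma's, at p under 0.05 after Benjamini-Hochberg adjustment over all 13263 genes tested. In DSS, 19 of the 43 were higher and 0 lower, while 16.9% of all genes were called (11.6% higher and 5.31% lower). In WT, 22 were higher and 1 lower, against 23.1% of all genes called (14.7% higher and 8.35% lower). KO had 8 higher and 0 lower, against 5.14% of all genes (3.69% higher and 1.46% lower), and COM 14 higher and 0 lower, against 7.6% (5.26% higher and 2.34% lower). The median log2 fold change of the 43 was 0.86 in DSS, 0.80 in WT, 0.35 in KO and 0.65 in COM, and that of all genes between 0.03 and 0.05. In 28 of the 43 every DSS library was above every Control library and in 1 below, and groups were apart in this way for 30% of all genes. The same counts were 24 and 1 in WT (27.6% of all genes), 12 and 1 in KO (13.1%) and 16 and 1 in COM (16.7%). Ccl21c and Ccl21d are 1 measurement but enter these and all later counts of members separately, and were called higher in each group. These comparisons share the Control libraries and are not independent.

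Receptors were called more fully than ligands in DSS, at 9 of 10 receptors and 10 of 33 ligands, a difference that was not itself tested. In WT the counts were 7 of 10 receptors and 15 of 33 ligands higher, in KO 1 and 7, and in COM 4 and 10. Called higher in all 4 comparisons were 8 genes, the ligands Ccl8, Ccl11, Ccl21a, Ccl21c, Ccl21d, Cxcl12 and Cxcl14 and the receptor Ccr2. Another 19 were called higher in none. Without the squamous-rich libraries 4 members were called in DSS, 13 in WT, 4 in KO and 3 in COM, and without the acinar-rich ones 8, 21, 4 and 12, with DSS 2 then the only DSS library and assumed to vary like the others. With only the 2 groups compared in the fit, 0 were called in DSS, KO and COM and 18 in WT.

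**Figure D1:**
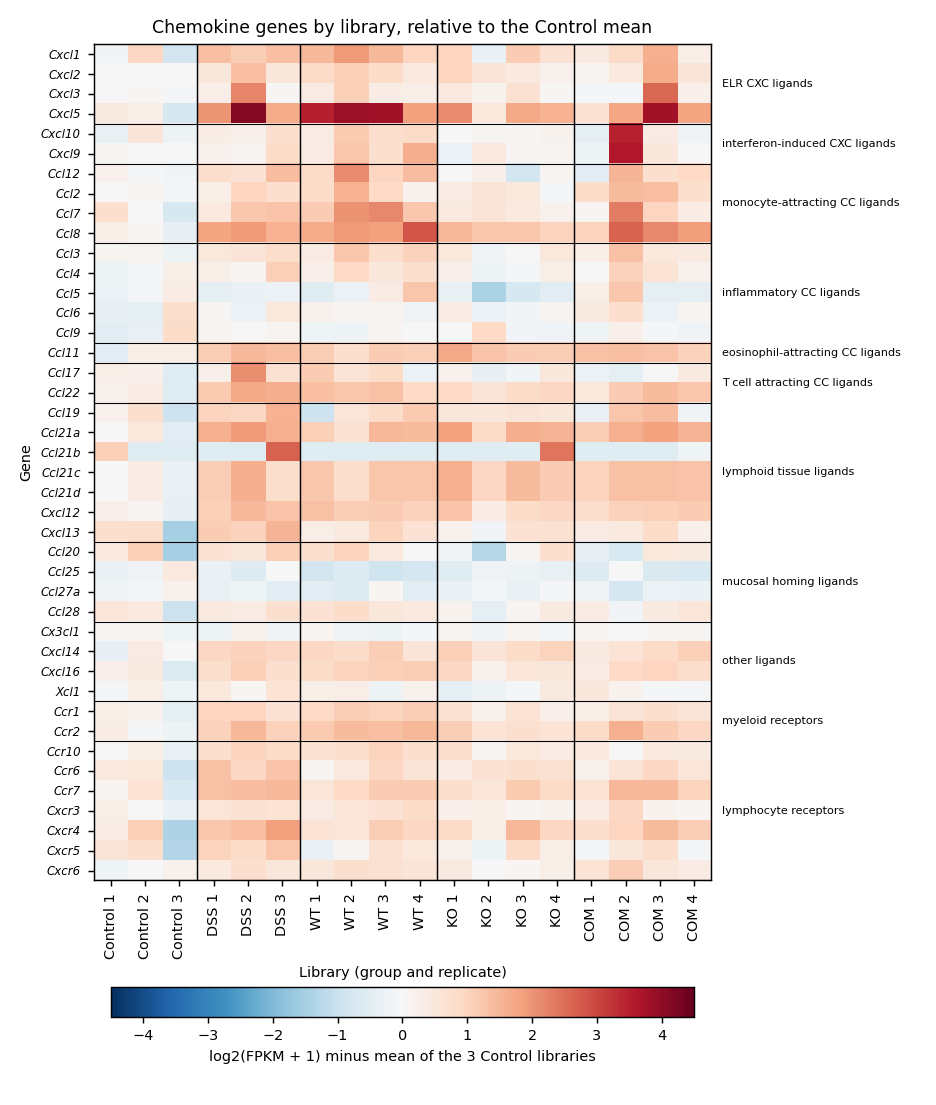
Heat map of 42 of the 43 tested chemokine genes (rows, by role) in the 18 libraries (columns, by group), coloured by log2(FPKM + 1) minus the mean of the 3 Control libraries. Most rows are red outside Control, Cxcl5 most of all, while Cxcl9 and Cxcl10 are dark in COM 2 alone and Control 3 is blue for Cxcl13, Cxcr5, Cxcr4 and Ccl20.

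**Figure D2:**
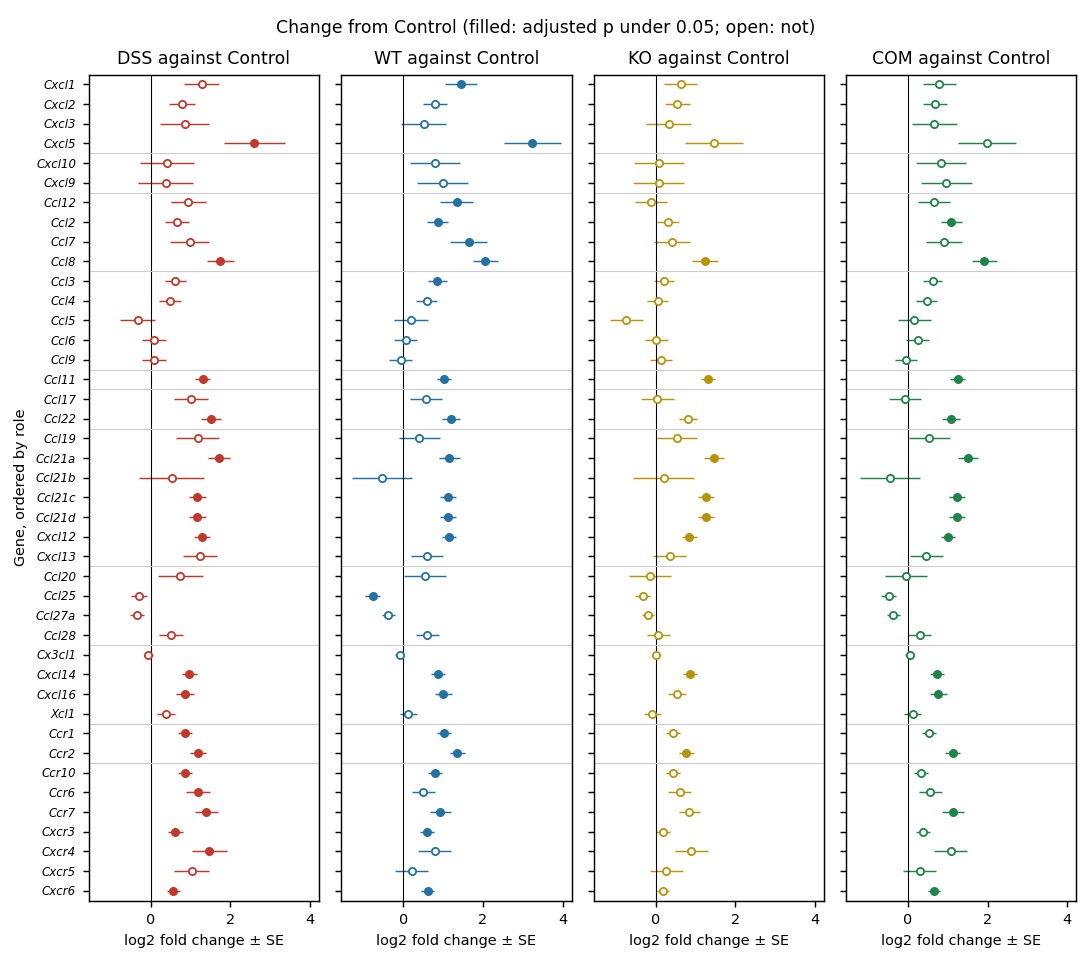
Log2 fold change of FPKM + 1 with its SE for the same genes in DSS, WT, KO and COM against Control, filled where the adjusted p is under 0.05. Filled points number 18, 22, 8 and 13, and the only filled point left of 0 is Ccl25 in WT.

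Among the ELR ligands Cxcl5, a neutrophil attractant made by epithelium, had the largest rise of any member in DSS and WT. It lay at 1.32, 1.15 and 0.05 FPKM in Control and at 5.96, 29.2 and 4.51 in DSS. In WT it lay at 18.7, 24.4, 22.7 and 5.23, in KO at 6.66, 1.42, 4.65 and 4.09 and in COM at 1.71, 4.77, 23.1 and 4.96. Every library of DSS-treated mice was above the highest Control, and DSS 2, COM 3, WT 1, WT 2 and WT 3 were far above the rest. The rise was 2.60 ± 0.77 in DSS (adjusted p = 0.0311) and 3.25 ± 0.72 in WT (adjusted p = 0.00569). The DSS call was lost without Control 3 (2.23) and without DSS 2 (1.83), while that of WT held with each library left out.

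Cxcl1, another CXCR2 ligand, lay at 0.8, 2.75 and 0.09 FPKM in Control, at 3.96, 3.20 and 4.03 in DSS and at 4.34, 6.36, 4.39 and 2.83 in WT. All DSS and WT libraries were above the Controls, whereas KO (2.79, 0.59, 3.34 and 2.14) and COM (1.55, 2.57, 4.85 and 1.37) overlapped them. It rose by 1.46 ± 0.41 in WT (adjusted p = 0.0196), a call lost without Control 3 (1.04) or WT 2 (1.30). Cxcl2 stood at 0 in each of the 3 Control libraries, at 0.42, 1.55 and 0.43 FPKM in DSS and 0.81, 1.12, 0.78 and 0.35 in WT. Its values were 0.96, 0.51, 0.35 and 0.14 in KO and 0.07, 0.34, 2.15 and 0.48 in COM, so every other library was above Control. No comparison called it.

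Cxcl3 showed the same leading libraries as Cxcl2, at a low level. It lay at 0.07, 0.08 and 0 FPKM in Control, 0.3, 3.80 and 0.08 in DSS and 0, 0, 5.31 and 0.22 in COM, with DSS 2 and COM 3 above all others, and reached 1.21 in WT 2. Of the 4 tested ELR ligands 1 rose in DSS, 2 in WT, 0 in KO and 0 in COM. Of all genes 11.6%, 14.7%, 3.69% and 5.26% were called higher, and these shares apply to each role or marker list below. In lists this small a count of 0 cannot be told from them.

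The libraries with the most Cxcl2, Cxcl3 and Cxcl5 were also high in other lists. Of 12 neutrophil markers, which include Cxcr2, 7 were tested and 5 rose in DSS, 5 in WT, 0 in KO and 1 in COM. Their mean log2(FPKM + 1) was 0.21 to 0.29 in Control, 0.82 to 1.81 in DSS, 1.13 to 1.73 in WT, 0.63 to 1.06 in KO and 0.82 to 1.85 in COM, highest in COM 3 (1.85) and DSS 2 (1.81). These libraries also lead the squamous list (3.92 and 3.95). WT 1 and WT 3, with squamous means of 0.927 and 0.915, still held 18.7 and 22.7 FPKM of Cxcl5. Ppbp, an ELR ligand of platelets outside the naming pattern and chosen here after its values were seen, lay at 61.1 FPKM in DSS 2 and 62.0 in COM 3. It was at 18.6 FPKM in WT 2, at 14.7 in WT 4 and at 8.55 in KO 3, and below 1 elsewhere. The part of neutrophil and squamous cells in these values was not tested.

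The monocyte-attracting ligands lie together with Ccl11 on chromosome 11 between 82035577 and 82116799. Ccl8, an attractant of monocytes and other leukocytes, was the most abundant of them and rose in every group. It lay at 6.13, 5.19 and 3.55 FPKM in Control, 19.2, 20.9 and 16.1 in DSS and 17.8, 20.9, 20.2 and 40.3 in WT. In KO its values were 15.1, 13.0, 12.9 and 10.6 and in COM 10.6, 35.9, 25.2 and 20.3, so no library overlapped Control, with WT 4 and COM 2 highest. The rise was 1.75 ± 0.34 in DSS, 2.06 ± 0.32 in WT, 1.24 ± 0.32 in KO and 1.92 ± 0.32 in COM (adjusted p = 0.00455, 0.000804, 0.036 and 0.00414). Only the KO call depended on single libraries: it was lost without Control 2 (1.28), Control 3 (1.06), KO 1 (1.17), KO 2 (1.23) or KO 3 (1.23).

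The other 3 were called in fewer groups. Ccl12, the mouse ligand closest in action to Ccl2, lay at 2.08, 1.61 and 1.47 FPKM in Control, 3.68, 3.21 and 6.15 in DSS and 3.89, 10.9, 4.33 and 6.16 in WT. Its KO values, 1.71, 2.17, 0.52 and 1.94, fell within or below the reach of Control apart from KO 2, and COM spread widely at 0.88, 6.78, 3.50 and 3.99. It rose by 1.34 ± 0.40 in WT (adjusted p = 0.0271), a call lost without Control 2 (1.31), Control 3 (1.27) or WT 2 (1.08). Ccl7, which binds CCR1, CCR2 and CCR3, lay at 3.51, 1.66 and 0.64 FPKM in Control, 2.62, 5.23 and 5.65 in DSS and 5.01, 10.1, 11.1 and 5.26 in WT. WT was entirely above Control, while KO (2.68, 3.03, 2.64 and 2.05) and COM (1.83, 12.2, 4.23 and 2.41) overlapped it. Its rise of 1.64 ± 0.45 in WT (adjusted p = 0.0179) was lost without Control 3 (1.28), WT 2 (1.51) or WT 3 (1.47).

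Ccl2 was low throughout, at 0.5, 0.62 and 0.42 FPKM in Control, 0.8, 1.93 and 1.56 in DSS, 1.66, 3.44, 1.84 and 0.7 in WT, 0.89, 1.24, 1.11 and 0.41 in KO and 1.71, 3.08, 2.90 and 1.49 in COM. Only KO overlapped Control. It rose in WT and, by 1.09 ± 0.27, in COM (adjusted p = 0.025). The COM call was lost without Control 2 (1.14), Control 3 (1.05), COM 2 (0.98) or COM 3 (1.0). The WT rise of 0.86 was lost without Control 2, Control 3, WT 1, WT 2 or WT 3 (0.63 to 1.09 with each library left out). Of these 4 ligands 1 rose in DSS, 4 in WT, 1 in KO and 2 in COM. These are 25%, 100%, 25% and 50%, against 11.6%, 14.7%, 3.69% and 5.26% of all genes called higher.

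The interferon-induced ligands lie side by side on chromosome 5, between 92321331 and 92348889, and were called in no comparison. Cxcl10 lay at 2.85, 6.33 and 3.17 FPKM in Control, 5.11, 4.70 and 7.07 in DSS, 5.33, 10.0, 7.52 and 7.97 in WT and 3.90, 4.39, 4.12 and 4.52 in KO. In COM it lay at 2.74, 53.2, 5.37 and 3.39, with COM 2 far above every other library of the study. Cxcl9 followed the same order within COM, at 0.98, 26.6, 2.28 and 1.24 in COM and 1.25 to 1.36 in Control, 1.47 to 3.10 in DSS, 1.97 to 6.08 in WT and 0.92 to 2.12 in KO. COM 2 also had the highest Irf1 (137 FPKM, at most 101 elsewhere) and Ifng (1.15, at most 0.18 elsewhere), genes of the interferon response picked here after their values were seen. The promoter of Cxcl10 printed above holds a match for each of the 2 motif kinds, and that of Cxcl9 for neither.

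The inflammatory CC ligands, on chromosome 11 between 83525778 and 83664683, were called least among the larger roles, with 0, 1, 0 and 0 of 5 higher in DSS, WT, KO and COM. With 11.6%, 14.7%, 3.69% and 5.26% of all genes called higher, such counts in 5 genes cannot be told from those shares. Ccl5, made by T and NK cells, lay at 21.0, 24.8 and 32.5 FPKM in Control and 18.9, 20.8 and 21.2 in DSS. WT (17.1, 21.3, 33.4 and 62.2) and COM (30.7, 60.5, 19.0 and 19.1) each had a library far above its others, WT 4 and COM 2, while KO lay at 20.3, 8.95, 15.4 and 17.9. These 2 libraries also led the T and NK cell list, with means of 2.60 and 2.58 against 1.32 to 1.82 in KO and 1.31 to 1.57 in Control. In DSS the list means were 1.91 to 2.12, above every Control, while Ccl5 was not called there. The part of these cells in the Ccl5 values was not tested. Ccl3, a ligand of CCR1, was higher in WT at 0.7, 2.07, 1.26 and 1.65 FPKM against 0.41, 0.42 and 0.11 in Control, with no overlap, a call lost without Control 3 or WT 2 (0.73 to 1.02). Its neighbour Ccl4 ranged over 0 to 1.48 FPKM and was not called.

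Ccl6 and Ccl9, neighbouring CC ligands of myeloid cells, were high in Control 3. Ccl6 lay at 147, 141 and 333 FPKM in Control and from 158 to 321 in COM. DSS, WT and KO ranged over 159 to 264, 170.1 to 217 and 158 to 241, all inside the Control range. Ccl9 lay at 5.0, 5.79 and 14.2 in Control and at 7.33, 14.8, 6.81 and 6.70 in KO, so that Control 3 and KO 2, both low in Hox genes, were alone above 10.

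**Figure D3:**
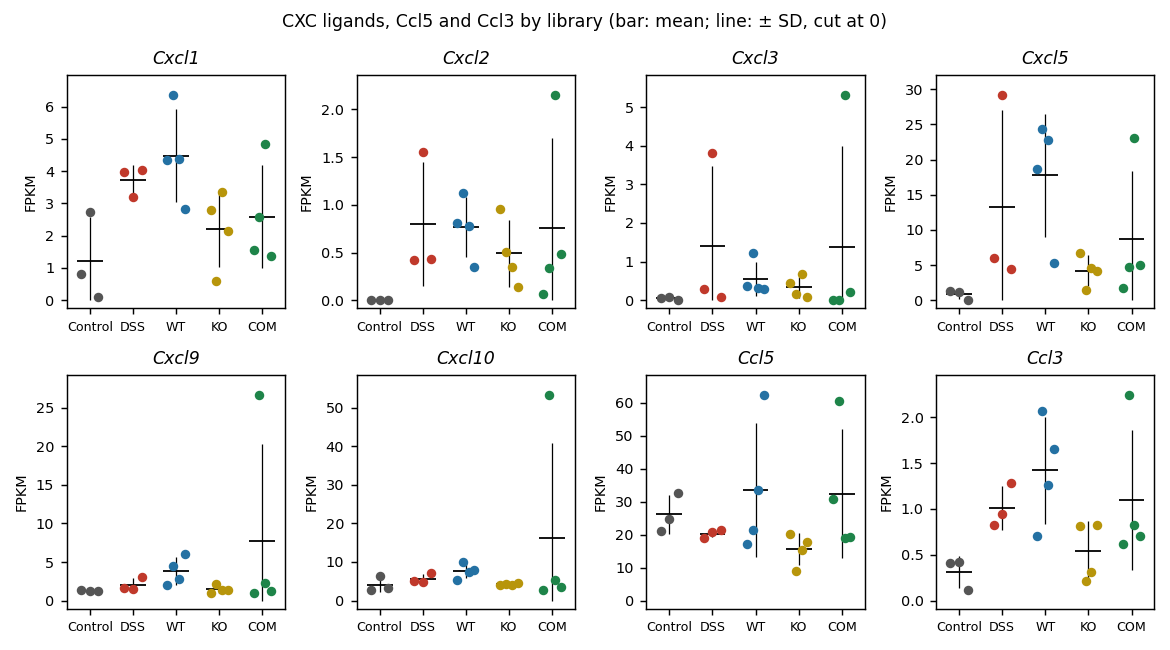
FPKM of 8 ligands by library in the 5 groups, with the mean as a bar and the SD as a line cut at 0. Cxcl5 peaks in DSS 2, Cxcl3 in COM 3, Cxcl9 and Cxcl10 in COM 2 (26.6 and 53.2 FPKM), and Ccl5 in WT 4 and COM 2.

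Ccl11 (eotaxin, which draws eosinophils through CCR3) rose in all 4 groups with little spread. It lay at 1.40, 3.05 and 3.05 FPKM in Control, 6.25, 8.27 and 7.73 in DSS and 6.31, 4.81, 6.54 and 6.12 in WT. KO held 10.1, 7.30, 6.59 and 6.31 and COM 7.49, 7.73, 7.23 and 5.94, and no library overlapped Control. The rise was 1.30 ± 0.19 in DSS, 1.31 ± 0.18 in KO and 1.25 ± 0.18 in COM (adjusted p = 0.00123, 0.00206 and 0.00214), and each held with any library left out. Its receptor Ccr3 did not pass 0.22 FPKM anywhere.

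Ccl22, a dendritic cell product that binds CCR4, rose in 3 groups. It lay at 1.12, 1.36 and 0.29 FPKM in Control, 3.24, 5.12 and 4.77 in DSS, 3.74, 3.45, 3.66 and 2.50 in WT, 2.48, 1.81, 2.30 and 2.52 in KO and 1.59, 3.13, 4.04 and 3.38 in COM. All 15 libraries of DSS-treated mice were above Control. The rise was 1.51 ± 0.24 in DSS, 1.21 ± 0.23 in WT and 1.07 ± 0.23 in COM (adjusted p = 0.0018, 0.00231 and 0.013). Ccl17, the other ligand of CCR4, lay at 1.68, 8.94 and 2.70 in DSS and 1.84, 1.71 and 0.59 in Control, with DSS 2 alone above 5, and was not called.

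Of the 7 lymphoid tissue ligands 4 rose in each of the 4 groups, in every case Ccl21a, Ccl21c, Ccl21d and Cxcl12. Both counts enter Ccl21c and Ccl21d separately, although they are 1 measurement. Ccl21a, which brings CCR7-bearing cells into lymphatics and lymphoid tissue, lay at 55.1, 76.2 and 38.8 FPKM in Control, 169, 209 and 168 in DSS and 115, 87.9, 156 and 147 in WT. In KO it lay at 195, 101, 173 and 159 and in COM at 118, 166, 193 and 161. No library overlapped Control. The rise was 1.71 ± 0.27 in DSS, 1.16 ± 0.26 in WT, 1.47 ± 0.26 in KO and 1.51 ± 0.26 in COM (adjusted p = 0.00178, 0.0056, 0.00547 and 0.00494). The shared value of Ccl21c and Ccl21d was 2.58 to 4.65 FPKM in Control and 6.86 to 12.9, 6.77 to 9.84, 7.65 to 12.6 and 8.06 to 10.3 in DSS, WT, KO and COM, a rise of 1.26 ± 0.20 in KO and 1.23 ± 0.20 in COM (adjusted p = 0.00331 and 0.00409). Ccl21b was at 0 in 14 libraries and at 8.07 in DSS 3, 6.77 in KO 4, 2.05 in Control 1 and 0.26 in COM 4.

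Cxcl12, a stromal ligand of CXCR4, lay at 16.8, 15.6 and 10.8 FPKM in Control, 31.2, 41.1 and 36.3 in DSS and 36.8, 31.3, 32.1 and 30.3 in WT. KO held 36.2, 18.3, 26.0 and 27.8 and COM 25.5, 29.7, 30.9 and 32.5. All 15 libraries were above Control, KO 2 the closest to it. The rise was 1.29 ± 0.19 in DSS, 1.15 ± 0.18 in WT, 0.85 ± 0.18 in KO and 1.01 ± 0.18 in COM (adjusted p = 0.00124, 0.000921, 0.0158 and 0.00608). Without Control 3 the KO call was lost (0.67).

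Markers of endothelium, lymphatic endothelium and fibroblasts were higher in the same libraries, while those of smooth muscle were not. All 10 endothelial markers rose in DSS, WT and KO and 9 in COM, with list means of 1.83 to 1.93 in Control and 2.41 to 2.90 in the other libraries. Of 6 lymphatic endothelial markers 5 rose in each group, with means of 1.52 to 1.78 and 2.14 to 2.74. Of 10 fibroblast markers 10 rose in DSS and WT and 7 in KO and COM. Of 8 smooth muscle markers 0 rose in any group, and 4 fell in DSS, 6 in WT, 0 in KO and 3 in COM. Of all genes 5.31%, 8.35%, 1.46% and 2.34% were called lower. No marker of these lists was at 0 in every library. The part of these cells in the rise of Ccl21a and Cxcl12 was not tested.

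Cxcl13, which recruits B cells through CXCR5, varied across libraries with the B cell markers. It lay at 24.9, 26.3 and 4.60 FPKM in Control, 34.3, 31.2 and 44.7 in DSS and 18.6, 20.5, 30.4 and 23.9 in WT. KO held 16.9, 13.7, 24.1 and 24.2 and COM 19.6, 20.3, 26.9 and 17.6. DSS was above Control 1 and 2, the others overlapped them, and Control 3, with a B cell marker mean of 0.42, was far below all. Ccl19, a CCR7 ligand, lay at 1.19, 2.15 and 0 FPKM in Control and 2.83, 2.66 and 4.67 in DSS and was listed at 0 in Control 3 and WT 1. Cxcl13 and Ccl19 were called in no comparison.

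**Figure D4:**
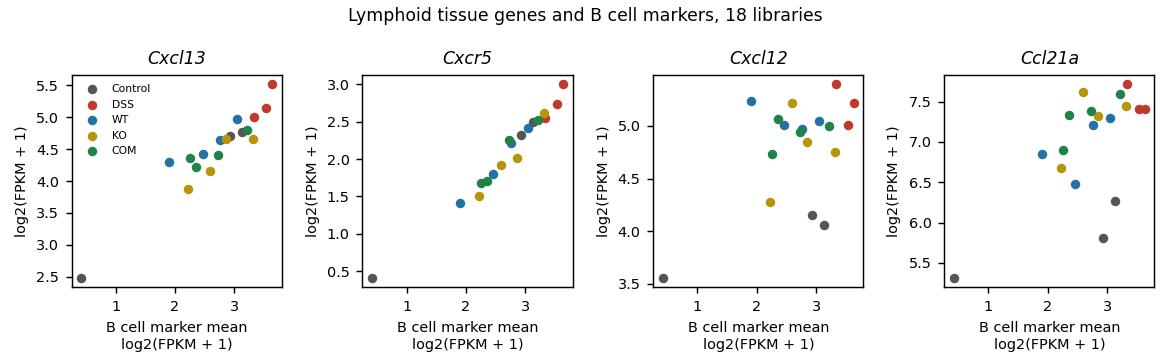
Log2(FPKM + 1) of Cxcl13, Cxcr5, Cxcl12 and Ccl21a against the mean log2(FPKM + 1) of 10 B cell markers in the 18 libraries, coloured by group. Cxcl13 and Cxcr5 climb with the B cell markers and Control 3 sits alone at the lower left, whereas Cxcl12 and Ccl21a place all 3 Controls below the other libraries.

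Against Control the mucosal homing ligands were the only role with a member called lower. Ccl25, which draws CCR9-bearing T cells and is named here although outside the rule for named genes, lay at 3.73, 4.15 and 6.80 FPKM in Control and 2.23, 2.87, 2.10 and 2.37 in WT, with no overlap. It fell by 0.77 ± 0.19 in WT (adjusted p = 0.0106), and the call was lost without Control 3, with values of -0.91 to -0.55 as each library was left out. DSS (3.71, 2.88 and 4.74), KO (2.90, 4.09, 3.90 and 3.58) and COM (2.84, 4.70, 2.67 and 2.58) overlapped Control. Ccl28, an epithelial ligand for plasma cells, lay at 76.1, 71.3 and 26.0 FPKM in Control and 71.4, 67.6 and 85.8 in DSS, with 71.4 to 93.7 in WT, 38.6 to 70.0 in KO and 48.3 to 75.9 in COM. Control 3 and KO 2 had the lowest 2 values. Ccl20, the CCR6 ligand of epithelium over lymphoid follicles, had its lowest values in the same libraries, 2.02 and 2.51 FPKM, against up to 16.9 in DSS 3. Ccl27a ranged over 5.22 to 10.9, and neither it nor Ccl20 or Ccl28 was called.

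Of the other ligands Cxcl14, an epithelial and stromal chemokine, rose in all 4 groups. It lay at 4.84, 8.65 and 6.54 FPKM in Control, 13.5, 14.3 and 13.3 in DSS, 13.3, 12.4, 15.3 and 10.3 in WT, 14.9, 10.2, 12.2 and 14.1 in KO and 8.90, 10.6, 12.6 and 14.8 in COM. No library overlapped Control, and in KO the rise was 0.87 ± 0.18 (adjusted p = 0.0133). The COM call was lost without Control 1, COM 3 or COM 4 (0.56 to 0.92). Cxcl16, the membrane-bound ligand of CXCR6, lay at 10.6, 12.2 and 5.43 in Control, 16.3, 20.0 and 15.3 in DSS and 16.6, 19.1, 19.8 and 20.6 in WT and was called in DSS, WT and COM. The DSS call was lost without Control 3 or DSS 2 (0.55 to 1.06) and that of COM without Control 3, COM 2, COM 3 or COM 4 (0.45 to 0.96). Cx3cl1 was the steadiest of the abundant ligands, at 14.0 to 18.8 FPKM over all libraries, and was called in no comparison. Xcl1 stayed at or below 2.20 FPKM.

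The myeloid receptors Ccr1 and Ccr2 lie with Ccr3 on chromosome 9, between 123962126 and 124109140. Both rose in DSS and WT, and Ccr2 also in KO and COM. Ccr2, the receptor of monocytes leaving the marrow, lay at 1.20, 0.65 and 0.5 FPKM in Control, 2.61, 3.90 and 2.58 in DSS and 2.99, 3.68, 3.45 and 3.91 in WT. KO held 2.77, 1.68, 1.93 and 1.72 and COM 2.13, 4.38, 2.85 and 2.33, all above Control. The rise was 1.18 ± 0.20 in DSS, 1.35 ± 0.19 in WT, 0.77 ± 0.19 in KO and 1.12 ± 0.19 in COM (adjusted p = 0.00238, 0.000491, 0.0299 and 0.00434). The KO call was lost without Control 2 (0.72), Control 3 (0.65), KO 1 (0.66) or KO 3 (0.78).

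Ccr1, shared by monocytes and neutrophils, lay at 2.42, 2.21 and 1.08 FPKM in Control, 4.53, 4.59 and 3.45 in DSS, 4.31, 5.09, 4.65 and 5.07 in WT, 3.56, 2.28, 3.39 and 2.29 in KO and 2.39, 3.25, 3.65 and 3.24 in COM. DSS and WT were above Control, and KO and COM each overlapped it.

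Macrophage markers were counted beside these receptors. Of 11 tested 10 rose in DSS, 10 in WT, 0 in KO and 8 in COM, and the mean of the 12 listed was 2.42 to 3.39 in Control, 3.78 to 4.18 in DSS, 3.95 to 4.12 in WT, 3.12 to 3.76 in KO and 3.47 to 3.79 in COM. In KO, although 0 were called, 10 of the 11 had an unadjusted p under 0.05 (90.9%, against 21.1% of all genes). Their median log2 fold change in KO was 0.62. None of the 12 was at 0 in every library, and their part in the receptor values was not tested.

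Lymphocyte receptors were called in 6 of 7 cases in DSS, 4 in WT, 0 in KO and 2 in COM. These are 85.7%, 57.1%, 0% and 28.6%, against 11.6%, 14.7%, 3.69% and 5.26% of all genes called higher. Ccr7, which carries dendritic cells and naive T cells to lymph nodes, lay at 0.91, 1.78 and 0.11 FPKM in Control, 3.47, 3.73 and 4.0 in DSS and 1.62, 2.36, 3.0 and 3.01 in WT. KO held 2.12, 1.64, 3.12 and 2.29 and COM 1.80, 4.03, 3.91 and 2.58. DSS and COM were above Control, the latter by little. The rise was 1.39 ± 0.29 in DSS and 1.13 ± 0.27 in COM (adjusted p = 0.00583 and 0.021). Ccr7 was also called higher in WT, where it overlapped Control. That WT call was lost without Control 3, WT 3 or WT 4 (0.58 to 1.24). The COM call was lost without Control 3 (0.78), COM 2 (1.02) or COM 3 (1.03).

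Cxcr4, the CXCL12 receptor, lay at 6.60, 11.7 and 1.30 FPKM in Control, 13.0, 14.5 and 20.8 in DSS and 8.30, 7.76, 11.9 and 10.6 in WT. KO held 9.86, 6.49, 16.1 and 10.7 and COM 9.32, 10.9, 15.4 and 12.0. Only DSS was wholly above Control. Its rise of 1.47 ± 0.45 in DSS (adjusted p = 0.034) was lost without Control 3 (0.78), DSS 1 (1.61), DSS 2 (1.53) or DSS 3 (1.29). Ccr6, the receptor for CCL20, lay at 1.85, 1.87 and 0.1 FPKM in Control and 4.17, 2.99 and 4.10 in DSS, and rose by 1.18 ± 0.31 (adjusted p = 0.0172). That call was lost without Control 3 (0.72), DSS 1 (1.12) or DSS 3 (1.13). WT, KO and COM ranged over 1.19 to 2.98, 1.64 to 2.45 and 1.37 to 3.0, overlapping Control.

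Control 3 was the lowest library for Cxcr4, Cxcr5, Ccr6 and Ccr7, which B cells carry among other lymphocytes. Cxcr5, which follows CXCL13, lay at 4.0, 4.63 and 0.33 FPKM in Control, 5.68, 4.87 and 7.01 in DSS, 1.65, 2.49, 4.35 and 3.66 in WT, 2.79, 1.83, 5.15 and 3.04 in KO and 2.21, 3.79, 4.74 and 2.26 in COM, and was called nowhere. Of 10 B cell markers 1 rose in DSS (10%, near the 11.6% of all genes) and 0 in WT, KO and COM. Their mean was 3.33 to 3.63 in DSS, and 2.93 and 3.13 in Control 1 and 2. Without Control 3 the count of receptors called in DSS was 6 of 10 and in WT 5 of 10.

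A further 3 receptors of lymphocytes and plasma cells were low but called in DSS and WT. Ccr10, which follows CCL28 on plasma cells, lay at 0.97, 1.39 and 0.56 FPKM in Control, 2.20, 2.93 and 2.49 in DSS and 2.11, 2.21, 2.91 and 2.32 in WT, without overlap. Cxcr3, the receptor for CXCL9 and CXCL10, ranged over 0.47 to 1.23 in Control, 1.63 to 1.87 in DSS and 1.34 to 2.15 in WT and was highest in COM 2 (2.44). Cxcr6, on tissue T and NK cells, lay at 0.48, 0.65 and 0.93 in Control, 1.20, 0.69, 0.78 and 1.01 in KO and 1.59, 2.58, 1.36 and 1.17 in COM, also highest in COM 2, and was called in COM too. The Cxcr3 calls were lost without Control 2, Control 3 or any DSS library in DSS (0.47 to 0.77) and without Control 2, Control 3, WT 3 or WT 4 in WT (0.45 to 0.75). The Cxcr6 call in DSS was lost without Control 1, Control 2, DSS 2 or DSS 3 (0.46 to 0.67), and that in COM without Control 2 (0.50 to 0.75). Of 7 plasma cell markers 5 rose in DSS and 5 in WT (71.4% in each, against 11.6% and 14.7% of all genes), and 0 in KO and COM.

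**Figure D5:**
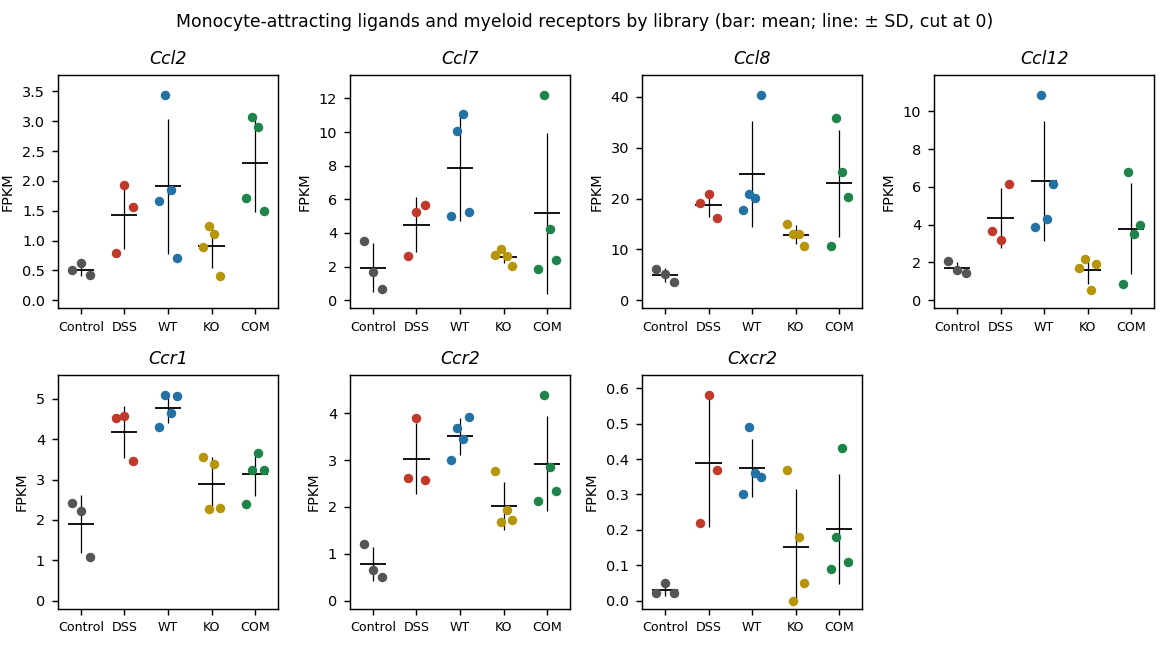
FPKM of 4 monocyte-attracting ligands and of Ccr1, Ccr2 and Cxcr2 by library in the 5 groups, with the mean as a bar and the SD as a line cut at 0. Control libraries are lowest for Ccr2, and the KO libraries lie below all WT libraries for Ccl7, Ccl8, Ccl12, Ccr1 and Ccr2.

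The 11 genes below the limit for testing were the ligands Ccl1, Ccl24, Cxcl15 and Cxcl17 and the receptors Ccr3, Ccr4, Ccr8, Ccr9, Cxcr1, Cxcr2 and Xcr1. Cxcr2, the neutrophil receptor of the ELR ligands, lay at 0.02, 0.05 and 0.02 FPKM in Control, 0.22, 0.58 and 0.37 in DSS and 0.3, 0.49, 0.36 and 0.35 in WT, with DSS and WT above Control. KO (0.37, 0, 0.18 and 0.05) overlapped Control as well as DSS and WT, and COM (0.09, 0.18, 0.43 and 0.11) lay above Control and overlapped DSS and WT. Ccr4, the receptor of CCL17 and CCL22, ranged over 0.05 to 0.13 in Control and 0.36 to 0.73 in DSS, highest in DSS 2. Ccl24, an eosinophil attractant, reached 1.08 FPKM in DSS 2 and at most 0.44 elsewhere. Ccr9, the CCL25 receptor, was within 0.17 to 0.62 over all libraries, and Cxcl15 and Cxcr1 did not pass 0.08.

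The comparisons of the strain groups with DSS asked whether gavage with a bacterium changed chemokine expression in mice that all had colitis induced. No chemokine gene was called in any of them. By limma 0 of 43 passed in WT, KO and COM, against 0%, 0.166% and 0.0151% of all genes, and 3, 12 and 3 (6.98%, 27.9% and 6.98%) had an unadjusted p under 0.05, against 4.77%, 16.3% and 11% of all genes. The median log2 fold change of the 43 was -0.03 in WT, -0.42 in KO and -0.20 in COM, and 18, 6 and 11 of the 43 lay above 0. Of all 13263 genes 6495, 5769 and 6035 lay above 0, with medians of -0.003, -0.027 and -0.017. In KO 10 members had every library below every DSS library, against 19.3% of all genes apart in either direction, in WT 7 (10.5%) and in COM 4 (15.7%). A missed threshold does not show that a strain left these genes alone, and the intervals below give the sizes that remain possible.

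In WT against DSS low p belonged to Ccl25, Ccr6, Ccl21a and Cxcr5. Their log2 differences were -0.48 (95% interval -0.88 to -0.08), -0.67 (-1.28 to -0.06), -0.55 (-1.10 to -0.01) and -0.80 (-1.69 to 0.08), all with adjusted p = 1. Lymphocyte receptors were lower in 6 of 7 cases, and Ccr1, Ccr2 and the 4 monocyte-attracting ligands all lay above 0. B cell markers in WT had means of 1.90 to 3.05, below the 3.33 to 3.63 of DSS, and their part was not tested.

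In KO against DSS the 10 receptors all lay below 0. The smallest p belonged to Ccl22 at -0.70 (-1.18 to -0.22, adjusted p = 0.163), Ccl12 at -1.06 (-1.92 to -0.20, adjusted p = 0.213), Ccr1 at -0.43 (-0.79 to -0.07, adjusted p = 0.234), Ccr10 at -0.42 (-0.78 to -0.06, adjusted p = 0.24) and Cxcr6 at -0.38 (-0.71 to -0.05, adjusted p = 0.247). For Ccl22, Ccl12 and Cxcr6 all 4 KO libraries were below all 3 DSS libraries. The 11 tested macrophage markers also all lay below 0, 8 with an unadjusted p under 0.05.

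In COM against DSS the values nearest to a call were Ccr10 at -0.54 (-0.89 to -0.18, adjusted p = 0.294), Ccl17 at -1.07 (-1.92 to -0.21, adjusted p = 0.355), Ccr6 at -0.62 (-1.23 to -0.01, adjusted p = 0.446), Ccr1 at -0.33 (-0.69 to 0.03, adjusted p = 0.492) and Ccl22 at -0.44 (-0.92 to 0.04, adjusted p = 0.495). The Ccl17 value rests largely on DSS 2, the library with 8.94 FPKM.

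KO against WT, which sets 2 bacterial strains side by side, had 1 of 43 members called, against 0.829% of all genes (0.505% lower), and 17 members (39.5%) with an unadjusted p under 0.05, against 20.1% of all genes. With each library left out the count was 0 to 1.

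Of the members that did not pass, 4 had the lowest p. Ccl12 stood at -1.46 (-2.26 to -0.67, adjusted p = 0.0652), Ccr1 at -0.59 (-0.93 to -0.25, adjusted p = 0.076), Ccr2 at -0.59 (-0.95 to -0.22, adjusted p = 0.0937) and Cxcr6 at -0.43 (-0.73 to -0.12, adjusted p = 0.127). In each of them every KO library was below every WT library. This held for 10 members in all and the reverse for Ccl25 alone, against 17.2% of all genes apart in either direction. The 4 monocyte-attracting ligands had a median of -1.03, while the 43 members had a median of -0.35 and all genes one of -0.02.

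Macrophage markers were lower in KO than in WT as well. Of 11 tested 1 was called and 10 had an unadjusted p under 0.05, and the list means did not overlap, at 3.12 to 3.76 in KO and 3.95 to 4.12 in WT. Neutrophil markers were at 0.63 to 1.06 in KO and 1.13 to 1.73 in WT. The part of these cells in the values of Ccr1, Ccr2 and their ligands was not tested.

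COM was not separated from WT or KO by the test. COM against WT had 0 members called, against 0.00754% of all genes, and 3 (6.98%) with an unadjusted p under 0.05, against 11.2% of all genes. COM against KO had 0, against 0.0302%, and 4 (9.3%) with such a p, against 10.8%. Against WT, Ccr1 stood at -0.49 (-0.83 to -0.16, adjusted p = 0.319) and Ccr10 at -0.47 (-0.80 to -0.14, adjusted p = 0.329). Against KO, Cxcr6 stood at 0.46 (0.15 to 0.76, adjusted p = 0.267), Ccl2 at 0.77 (0.24 to 1.31, adjusted p = 0.291), Ccl5 at 0.90 (0.08 to 1.71, adjusted p = 0.42) and Ccl8 at 0.68 (0.05 to 1.30, adjusted p = 0.424). In COM against WT 2 members had every library below every WT library, against 10.4% of all genes apart in either direction, and in COM against KO 1 had every library above, against 7.34%. COM 2 held the highest Ccl2, Ccl5, Ccl8 and Cxcr6 of its group. The 4 monocyte-attracting ligands all lay above 0 in COM against KO.

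Genes around the chemokine system were counted in 3 lists. Of 26 genes that carry receptor signals, 14 rose in DSS, 11 rose and 1 fell in WT, 2 rose in KO and 4 in COM. The shares called were 53.8%, 46.2%, 7.69% and 15.4%, against 16.9%, 23.1%, 5.14% and 7.6% of all genes, so KO was near that share. The Rac activators Dock2 and Prex1 rose by 1.08 ± 0.30 and 1.0 ± 0.12 in DSS, the Rac family member Rac2 by 1.0 ± 0.29 and the phosphoinositide 3-kinase subunit Pik3cg by 0.92 ± 0.14 (adjusted p = 0.0243, 0.000707, 0.0263 and 0.00142). Prex1 rose in WT by 1.02 ± 0.11, in KO by 0.77 ± 0.11 and in COM by 0.75 ± 0.11, and is the only gene of the list called in all 4. The gene that fell in WT was Rgs1, which shortens receptor signals, by 0.66 ± 0.16 (adjusted p = 0.00831).

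Of 12 other chemokine system genes 10 were tested, and 3 rose in DSS, 3 in WT and 0 in KO and COM. Of all genes 16.9% were called in DSS and 23.1% in WT, against 30% of the 10 in each. Cx3cr1, the receptor of CX3CL1 on macrophages, rose by 0.97 ± 0.26 in DSS and 1.14 ± 0.24 in WT (adjusted p = 0.0183 and 0.00405), while its ligand was called nowhere. Ackr1, the decoy receptor of venules, rose by 0.61 ± 0.15 in DSS, and Ackr3, which takes up CXCL12, by 0.77 ± 0.25 in WT (adjusted p = 0.0158 and 0.0349). Of 15 inducers and NF-kB genes 10 were tested, with 2, 4, 1 and 1 higher in DSS, WT, KO and COM. These are 20%, 40%, 10% and 10% of those tested, against 16.9%, 23.1%, 5.14% and 7.6% of all genes called. In DSS the share was thus near that of all genes. The cytokine Il1b rose in all 4, by 1.73 ± 0.35 in DSS, 1.71 ± 0.33 in WT, 1.49 ± 0.33 in KO and 1.44 ± 0.33 in COM (adjusted p = 0.00543, 0.00262, 0.019 and 0.0187). Tnf rose in WT by 0.81 ± 0.26 (adjusted p = 0.0365), and Nfkb1, which encodes an NF-kB subunit, by 0.29 ± 0.07 in DSS (adjusted p = 0.00914). Il6, Il17a and Ifng were below the limit for testing.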

How the data were processed

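Whole colons were rinsed and snap-frozen, and total RNA was sequenced on the DNBSEQ platform, per the labels' protocols. For 18 libraries and 18349 genes the authors deposited FPKM values in 1 table. The submitters' processing notes name the build mm10. For the aligner, the counting program and read filters, nothing is stated in the labels or the table, and depth in reads is unknown. Library sums were 517933 to 558590 FPKM. Symbols and coordinates came from RefSeq GRCm38.p6, which matched 18230 gene identifiers and left 119 unmatched. FPKM are not counts, so log2(FPKM + 1) was tested with limma 3.58.1 in R 4.3.3, two-sided, in 1 model of the 5 groups with a mean-variance trend. A gene entered if 3 or more libraries had 1 FPKM or more, which kept 13263, and p was adjusted by Benjamini-Hochberg within each of 10 comparisons. Fold changes on this scale understate those of low genes. On simulated data for DSS against Control, with 200 of 13263 genes changed, 92% of 2-fold and 70% of 1.5-fold changes were recovered. Changes were placed only in genes with a mean log2(FPKM + 1) above 2, on that scale and with normal noise. The rates therefore do not cover lower genes, such as Ccl2, Ccl3 and Cxcl2.

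The members, role groups, pathway and marker lists were chosen with earlier results of these data known. Marker lists are given as means over their listed genes. Statistics were printed for called members, at most 10 in a comparison by size, or for the 5 smallest p where fewer than 3 were called, and for up to 4 genes of a pathway list. Alternatives were a pseudocount of 0.1, no filter, a filter of 5 FPKM, quantile normalization, TPM, a fit of only the 2 groups compared, a replicate block, each library left out, and the acinar-rich, squamous-rich or low-Hox libraries left out. Promoter windows were searched for the NF-kB consensus, GAAANNGAAA and TATAAA on both strands. A single member is counted in the totals but not reported on its own here or drawn in the figures.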

Additional observations from a re-analysis of the deposited data

Results flagged for a closer look

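In the WT, KO and COM groups, 129 sets of 4 values (43 chemokine genes in 3 groups) were searched for a library far from its neighbours by Dixon's criterion. It marked 18 (14.0%), and 6 of these were in COM 2. The criterion's rate of about 1 in 20 is for independent, normally distributed values. These were unlogged FPKM of related genes, with Ccl21c and Ccl21d identical, and the share over all genes was not computed. No excess over chance can therefore be read from the count. In COM 2, Cxcl10 stood at 53.16 FPKM, Cxcl9 at 26.63, Ccl3 at 2.24 and Ccl25 at 4.7, each the highest of the group, while Ccr10 at 0.93 and Cx3cl1 at 16.28 were the lowest. COM 3 was highest for Cxcl3 (5.31 FPKM) and Cxcl5 (23.12 FPKM). WT 2 was highest for Cxcl3 at 1.21 FPKM and WT 4 for Ccl8 at 40.34 FPKM, and WT 3 for Ccl27a at 9.99 FPKM. KO 2 was highest for Ccl9, at 14.75 FPKM.

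The Ccl21 copies gave 6 of the marked values. Ccl21c and Ccl21d, with identical values, were lowest in WT 2 (6.77 FPKM) and in COM 1 (8.06 FPKM). Ccl21b was at 6.77 FPKM in KO 4 and at 0.26 FPKM in COM 4 and listed at 0 in the other libraries of those groups.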

How the results depend on the processing

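No direction of a named change reversed under any alternative. This is a weak check, because the named changes were picked from these data for their size or small p. Over their refits a call was lost 124 times, gained 4 times and left as it was 999 times. Members called in DSS against Control were 19, and 10 with a 5 FPKM filter, 0 with only the 2 groups fitted, 8 without the acinar-rich and 4 without the squamous-rich libraries. In WT against Control 23 became 11 with the 5 FPKM filter and 13 without the squamous-rich libraries. In KO against Control 8 became 0 with only the 2 groups fitted and 4 without the acinar-rich or the squamous-rich libraries. In COM against Control 14 became 8 with the 5 FPKM filter, 0 with only the 2 groups fitted and 3 without the squamous-rich libraries. The 5 FPKM filter tested 22 members. With each library left out the counts were 14 to 19 in DSS, 15 to 24 in WT (15 without Control 3), 5 to 9 in KO (5 without Control 3) and 9 to 15 in COM (9 without COM 3). Calls kept with every library left out in turn were 13 of 19, 15 of 23, 5 of 8 and 8 of 14. The single KO against WT call became 0 with a pseudocount of 0.1, no filter, the 5 FPKM filter or without the acinar-rich, squamous-rich or low-Hox libraries. It became 2 with quantile normalization and 6 with only the 2 groups fitted, and 0 to 1 with each library left out. Depth in reads is unknown, so no limit on undetected genes can be given.

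Replicate numbers gave no clear sign of pairing. Of 33 same-numbered pairs 13 had a correlation of deviations above 0.1 (-0.47 to 0.39, median 0.01). Of 96 pairs with different numbers 33 did (-0.52 to 0.63, median -0.03). Among the 18 libraries 3 correlated best with their own number. A batch shared in another way was not tested. With the replicate block 17, 23, 6 and 12 members were called in DSS, WT, KO and COM against Control, and 0 in every other comparison, KO against WT included.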
